A study of Homo sapiens with 2 samples.

Results

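Protein arginine methyltransferases add methyl groups from S-adenosylmethionine to arginine side chains, and the 10 genes described here are 7 of these enzymes (PRMT1, PRMT2, PRMT3, PRMT5, PRMT6, PRMT7 and CARM1), the PRMT5 partners WDR77 and CLNS1A, and JMJD6. They were taken by symbol from the 19096 gene symbols of the deposited tables, and each gene is represented by the transcript row with the highest mean RPKM (read density per kilobase, relative to library size) over both libraries. All 10 passed the filter that defined expressed genes, a mean RPKM of at least 1, as did 10272 genes in all. The cells were P493-6, a human B cell line that carries a c-Myc transgene which tetracycline represses. They were labelled as B-cell lymphoma and grown in RPMI 1640 with serum. The low c-Myc group was 1 library from cells at 0 h after the transgene was released, and the high c-Myc group was 1 library from cells at 24 h. Synthetic RNAs were added to both by cell number, which allows a comparison per cell beside that of the deposited RPKM. With 1 library per group no test was possible, no difference has a replicate check, the hours since release cannot be told apart from the c-Myc level, and each value describes this pair of libraries of 1 cell line.

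Type I enzymes, to which PRMT1, PRMT2, PRMT3, PRMT6 and CARM1 belong, make asymmetric dimethylarginine. The type II enzyme PRMT5 makes symmetric dimethylarginine, and the type III enzyme PRMT7 makes monomethylarginine only. PRMT5 works in a complex with WDR77 (MEP50), and the adaptor CLNS1A (pICln) brings it the Sm proteins, whose methylation helps the SMN complex load them onto spliceosomal small nuclear RNAs. PRMT5 and the Sm core have been described as MYC-responsive in B cell lymphoma models, and PRMT1 and CARM1 also act on histones as transcriptional coactivators.

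MYC itself had an RPKM of 836 before release and 2358 at 24 h, a 2.82-fold higher level in the library labelled high. MYC RNA was thus abundant before release too, above that of the B cell marker CD79B, which ranked 22 among expressed genes there (RPKM 695). Steps between the lowest values implied about 103000000 reads in the low and 106000000 in the high c-Myc library. The synthetic RNAs took 17.5% and 2.75% of the summed RPKM. The 46 of them that reached an RPKM of 1 in each library had a median log2 ratio of high over low of -2.56 (SD 0.54 among them, quartiles -2.84 and -2.17), so folds per cell are 5.88 times those of the deposited scale. Which mix of the synthetic RNA kit each sample received is not stated, and values per cell take it to be the same. All 7 B cell markers were present, with RPKM of 58.8 to 1202 before release and 39.8 to 460 after it, with a sum of 3278 and 1276. Per cell 6 of the 7 were at least 2-fold higher at 24 h, against 97.1% of all expressed genes. Their median log2 ratio per cell was 1.57, beside 2.78 over all expressed genes. The 8 T and NK cell markers summed to 22.3 and 7.06, with CD3D and CD8A at 0 in both libraries. The 6 myeloid markers summed to 151 and 35.6, with MPO at 0 in both. Among them CD68 stood at 66.5 and 11.1, ITGAM at 56.8 and 19.5 and LYZ at 27.2 and 4.91. Before release CD68 and ITGAM were thus near the lowest B cell marker (58.8). The myeloid markers CD14 (RPKM 0.070 before release and 0.075 at 24 h) and CSF1R (0.012 and 0.026) were near 0 in both libraries. The 6 fibroblast and epithelial markers summed to 19.3 and 13.1, with KRT18 at 0 in both. The highest were PDGFRB, at 10.7 and 2.80, and COL1A1, at 8.06 and 9.23. Of the 5 erythroid and platelet markers, 4 were at 0 in both libraries and the sum was 0 and 0.16. RPKM was lower at 24 h for all 7 B cell markers and for 6 of the 8 T and NK cell markers. It was lower for 3 of the 6 myeloid and 3 of the 6 fibroblast and epithelial markers. The part of these markers in the values below was not tested.

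The promoters of 4 members are shown because they span the range of the results: PRMT1, with the highest ratio on the deposited scale, PRMT2, the one gene with a lower RPKM, and PRMT3 and WDR77, the members whose windows hold CACGTG, the E-box that MYC and MAX bind. Each is the RefSeq window of build GRCh38.p14 from 220 bases before to 30 bases after the annotated start, read 5′ to 3′ along the gene, with CACGTG in capitals.
PRMT1 (chr19:49677051-49677300, plus strand): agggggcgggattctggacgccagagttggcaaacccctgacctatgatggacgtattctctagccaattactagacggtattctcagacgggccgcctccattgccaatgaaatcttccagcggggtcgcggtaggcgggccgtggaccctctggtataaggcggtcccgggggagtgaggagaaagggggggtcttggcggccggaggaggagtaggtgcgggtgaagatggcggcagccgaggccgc
PRMT2 (chr21:46635454-46635703, plus strand): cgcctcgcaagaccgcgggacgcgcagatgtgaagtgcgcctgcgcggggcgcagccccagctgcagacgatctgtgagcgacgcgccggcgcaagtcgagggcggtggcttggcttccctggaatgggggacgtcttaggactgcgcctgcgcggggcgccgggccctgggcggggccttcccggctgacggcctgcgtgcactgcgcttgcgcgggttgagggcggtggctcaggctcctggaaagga
PRMT3 (chr11:20387496-20387745, plus strand): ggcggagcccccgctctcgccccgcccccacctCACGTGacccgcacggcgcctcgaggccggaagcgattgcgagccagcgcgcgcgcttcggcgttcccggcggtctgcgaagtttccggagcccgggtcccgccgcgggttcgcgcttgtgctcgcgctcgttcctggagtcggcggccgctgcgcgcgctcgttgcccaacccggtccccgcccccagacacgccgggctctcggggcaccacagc
WDR77 (chr1:111449227-111449476, minus strand): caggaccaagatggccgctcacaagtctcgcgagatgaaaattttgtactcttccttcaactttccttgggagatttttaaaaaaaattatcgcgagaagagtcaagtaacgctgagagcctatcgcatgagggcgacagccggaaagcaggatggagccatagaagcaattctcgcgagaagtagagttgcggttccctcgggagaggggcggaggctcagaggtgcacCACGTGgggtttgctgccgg
RefSeq windows of 300 bases (250 before and 50 after the start) were found for 9 of the 10 members, 11 windows in all since CARM1 and PRMT7 have more than 1 start. CACGTG, which reads the same on both strands, was in the windows of 2 of these 9 members. Over all 35116 windows the share was 7.26%, a share of windows and not of genes. Counted from 1 at the start, with negative numbers before it, the string began at position -187 in PRMT3 and 11 in WDR77. The variant CACGCG, searched on both strands as CACGCG and CGCGTG, was in windows of CARM1 and PRMT7, against 11.4% of all windows. These are the members with more than 1 window, and the PRMT7 windows overlap and hold the same site. The 4 motif-bearing members had a higher RPKM in the high c-Myc library, as did PRMT1, PRMT5, PRMT6 and CLNS1A, whose windows held neither string. A match is a string of letters in this window and no evidence of binding. The GC content of the windows ran from 54.0% for CLNS1A to 82.3% for the first CARM1 start.

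On the deposited scale 9 of the 10 members had a higher RPKM in the high c-Myc library and PRMT2 had a lower one. A difference of at least 2-fold, a log2 ratio of 1 or more with 0.5 added to each RPKM, was met upwards by 7 members (PRMT1, PRMT6, PRMT5, CARM1, PRMT3, WDR77 and PRMT7), against 24.9% of all expressed genes. No member was at least 2-fold lower, against 9.74% of expressed genes. The median log2 ratio of the members was 1.55, beside 0.22 over all expressed genes (interquartile range -0.44 to 0.997). Of the members, 8 lay above that median and 2 below it, JMJD6 and PRMT2. Other scalings moved the median of all genes to 0 (centring), -0.13 (equal RPKM sums without the synthetic RNAs) and -0.09 (quantile normalization), and left 6, 5 and 5 members at least 2-fold higher, against 19.8%, 16.9% and 17.5% of all expressed genes on those scales. A correction for transcript GC content left 7, against 20.7% of the genes that had a GC value. In bulk RNA, fewer cells that express a gene and less of its RNA per cell cannot be told apart.

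**Figure D1:**
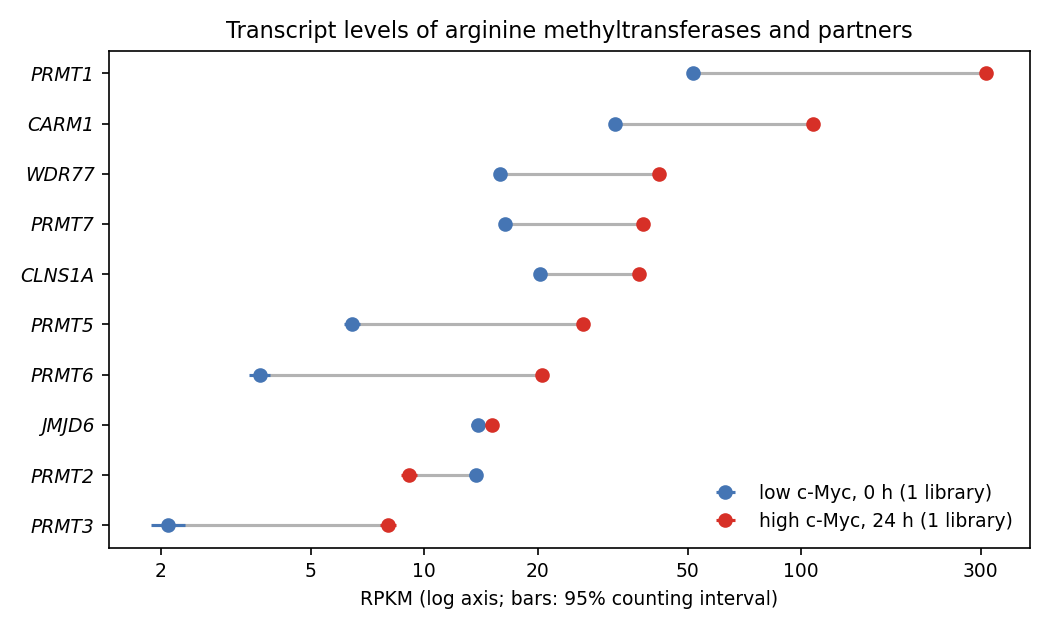
RPKM of each member in the low c-Myc (blue) and high c-Myc (red) library on a log axis, 1 library each, with 95% counting intervals as bars, most of them narrower than the points. PRMT1 moved from 51.7 to 310, while the points of JMJD6 nearly meet and those of PRMT2 are in the opposite order.

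PRMT1, which makes most of the asymmetric dimethylarginine in mammalian cells, was the most abundant member in both libraries. Its RPKM was 51.7 before release and 310 at 24 h (NM_001207042). That is 5.99-fold higher (95% counting interval 5.84 to 6.16), a log2 ratio of 2.57 that exceeded those of 96.1% of expressed genes. Its rank among expressed genes by RPKM went from 783 to 94. The other rows of PRMT1 gave log2 ratios of 2.52 each, so its transcript variants differed little in ratio, although reads of shared exons may have been counted for each.

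CARM1 (PRMT4), a coactivator enzyme that methylates histone H3 and the p300 and CBP acetyltransferases, was the next most abundant member in both libraries. Its RPKM was 32.1 in the low and 108 in the high c-Myc library, 3.35-fold higher (95% counting interval 3.28 to 3.42). Its transcript is the richest in GC among the members (61.9%), and once ratios were corrected for GC content its log2 ratio of 1.73 became 1.01, just past the 2-fold limit. By GENCODE, 26.6% of the CARM1 transcript lies opposite exons of YIPF2, which stood at an RPKM of 10.4 and 18.6. Whether counting used strand is not stated in the labels, so the part of YIPF2 reads in the CARM1 values was not tested.

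PRMT6, a nuclear enzyme that methylates histone H3 and opposes activating methylation next to it, had the highest ratio after PRMT1 on the deposited scale. Its RPKM was 3.66 in the low and 20.5 in the high c-Myc library, 5.60-fold higher (95% counting interval 5.24 to 6.00), a log2 ratio of 2.34. Its GC-corrected log2 ratio was also 2.34, above the 2.17 to which the correction brought PRMT1, so the order of these genes turned. PRMT3, a cytoplasmic enzyme whose main substrate is ribosomal protein RPS2, was the least abundant member in both libraries, with RPKM of 2.09 before release and 8.02 at 24 h. That is 3.84-fold higher (95% counting interval 3.42 to 4.31), and its substrate's gene RPS2, which has many near-identical copies, stood at 10.6 and 26.5. PRMT3 has an AT-rich transcript (41.0% GC), and its log2 ratio of 1.72 became 2.06 with the GC correction.

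PRMT2, a type I enzyme with an SH3 domain and weak activity, was the exception among the methyltransferases. Its RPKM was 13.7 before release and 9.12 at 24 h, so the later level was 0.67 times the earlier (95% counting interval 0.63 to 0.71), a log2 ratio of -0.56 below those of most expressed genes (20.8% were lower still). The value stayed below 0 under all 10 alternatives of processing on this scale, between -0.96 and -0.54. Most of them could not have raised it above 0. Pseudocounts and level filters cannot change a sign, and centring, equal sums and quantile normalization lowered the median of all genes. All 5 PRMT2 rows had a lower RPKM in the high c-Myc library, with log2 ratios from -0.68 to -0.50. As for PRMT1, reads of shared exons may have been counted for each row. The variant NM_001242865 was less abundant than the other rows in both libraries, at 5.82 and 3.45 against 12.3 to 13.7 and 8.54 to 9.12 for the rest.

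PRMT5, the main source of symmetric dimethylarginine, had an RPKM of 6.43 before release and 26.4 at 24 h. That is 4.10-fold higher (95% counting interval 3.89 to 4.33), a log2 ratio of 1.96 above those of 91.7% of expressed genes. The other PRMT5 row gave 1.97. By GENCODE, 36.0% of the PRMT5 transcript lies opposite exons of the antisense gene PRMT5-AS1, whose level was not analysed here. PRMT7, the monomethylating enzyme, had an RPKM of 16.4 before release and 38.1 at 24 h, 2.32-fold higher (95% counting interval 2.23 to 2.41). Its log2 ratio of 1.19 became 0.90 with the GC correction and 0.97 after centring on the median of all genes, so its place past the 2-fold limit depends on the scale.

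The PRMT5 partners were higher by smaller factors than PRMT5. WDR77, a WD-repeat protein that binds PRMT5 and holds its substrates, had an RPKM of 15.8 before release and 41.9 at 24 h, 2.64-fold higher (95% counting interval 2.55 to 2.74). Its log2 ratio was 1.37 as deposited, and 0.996 under equal sums, just short of the 2-fold limit, and 0.83 under quantile normalization. By GENCODE, 12.5% of its transcript lies opposite exons of ATP5F1 (RPKM 7.19 and 10.5) and 26.1% within an overlapping gene on the same strand. CLNS1A stood at 20.3 and 37.2, 1.83-fold higher (95% counting interval 1.78 to 1.89), and its log2 ratio of 0.86 became 1.24 with the GC correction, the lowest GC content among the member transcripts being its own (40.3%). JMJD6, a JmjC-domain oxygenase that hydroxylates lysines and has been proposed to demethylate arginines, stood at 13.9 and 15.1, a 1.09-fold difference (95% counting interval 1.03 to 1.15). Its log2 ratio of 0.12 turned negative under 4 of the 10 alternatives (lowest -0.33), those with the GC correction, centring, equal sums and quantile normalization. The longer JMJD6 variant NM_001081461 was at 4.71 and 4.77, well below the shorter NM_015167 in both libraries.

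The proportions within the PRMT5 complex differed between the libraries. The RPKM of PRMT5 was 0.41 times that of WDR77 before release (95% counting interval 0.38 to 0.43) and 0.63 times at 24 h (0.61 to 0.65). WDR77 was 0.78 times CLNS1A before release and 1.13 times after it, so their order changed on the deposited scale. With the GC correction their log2 ratios lay closer together (1.43 and 1.24) than as deposited (1.37 and 0.86). Whether the order changes on the corrected scale was not tested. RIOK1, a kinase that competes with CLNS1A for PRMT5 and directs it to other substrates, stood at an RPKM of 3.79 and 7.19. CLNS1A was 5.36 times RIOK1 before release (95% counting interval 5.03 to 5.72) and 5.17 times at 24 h (4.93 to 5.41), intervals that overlap. The adaptor gene C17orf79 (COPRS), which recruits PRMT5 to nucleosomes, had a ratio like that of PRMT5, which was 1.25 times its RPKM before release (1.13 to 1.38) and 1.34 times at 24 h (1.28 to 1.41), with overlapping intervals. These are ratios of transcripts per length and not of protein.

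The order of the members by RPKM was PRMT1, CARM1, CLNS1A, PRMT7, WDR77, JMJD6, PRMT2, PRMT5, PRMT6 and PRMT3 in the low c-Myc library. There the counting intervals of PRMT7 and WDR77 overlapped, and so did those of JMJD6 and PRMT2. In the high c-Myc library the order was PRMT1, CARM1, WDR77, PRMT7, CLNS1A, PRMT5, PRMT6, JMJD6, PRMT2 and PRMT3, and only PRMT7 and CLNS1A had overlapping intervals. PRMT5 and PRMT6 thus stood below JMJD6 and PRMT2 before release and above them after it. Counting intervals cover counting error only, and not the spread between cultures.

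**Figure D2:**
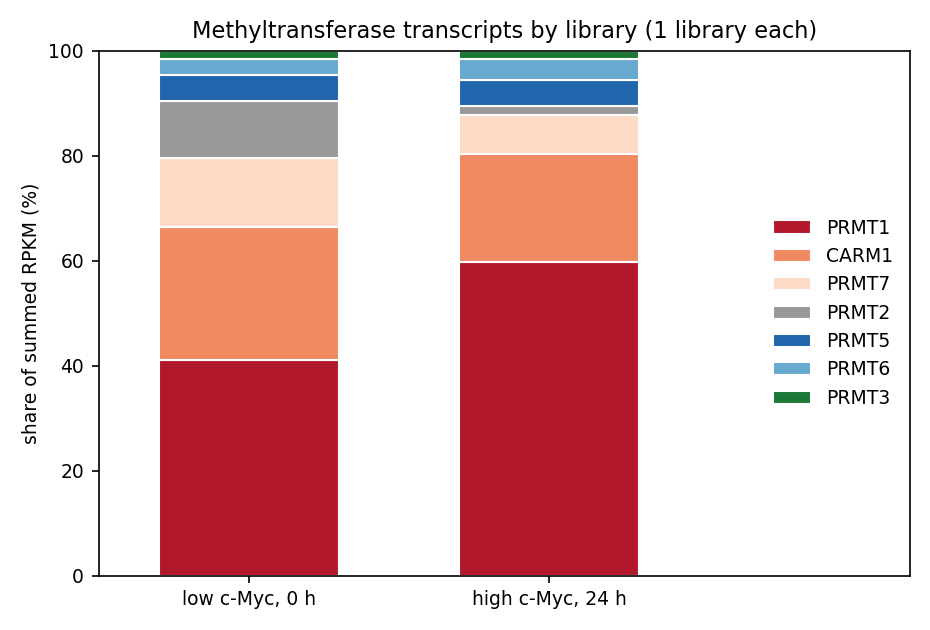
Share of each enzyme (percent) in the summed RPKM of the 7 methyltransferases, 1 library per bar. PRMT1 (dark red) took 41.0% in the low and 59.7% in the high c-Myc library, and PRMT2 (grey) 10.9% and 1.75%.

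Summed over the 7 methyltransferases, RPKM was 126 in the low and 520 in the high c-Myc library, 4.12-fold higher, and 2.82-fold higher without PRMT1. The share of PRMT1 in that sum was 41.0% in the low and 59.7% in the high c-Myc library. The share of CARM1 was 25.5% and 20.7%, that of PRMT7 13.0% and 7.33%, and that of PRMT2 10.9% and 1.75%. The share of PRMT5 was 5.09% and 5.08%, since its own ratio was close to that of the sum.

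Per cell, all 10 members were at least 2-fold higher after release, as were 97.1% of expressed genes, so the count says little about the members, and none was 2-fold lower, against 0.0876% of expressed genes. The median log2 ratio per cell was 4.10 over the members and 2.78 over all expressed genes. PRMT1 was 35.3-fold higher per cell, PRMT6 33.0-fold, PRMT5 24.1-fold, PRMT3 22.6-fold and CARM1 19.7-fold. WDR77 was 15.6-fold, PRMT7 13.6-fold and CLNS1A 10.8-fold higher. JMJD6 was 6.41-fold and PRMT2 3.91-fold higher per cell, so the gene with a lower RPKM was higher once each library was set against the synthetic RNAs. In the authors' column renormalized to the synthetic RNAs, PRMT1 went from 22.5 to 712 (31.6-fold) and PRMT2 from 6.37 to 19.6 (3.08-fold), the highest and lowest folds of the members there too.

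**Figure D3:**
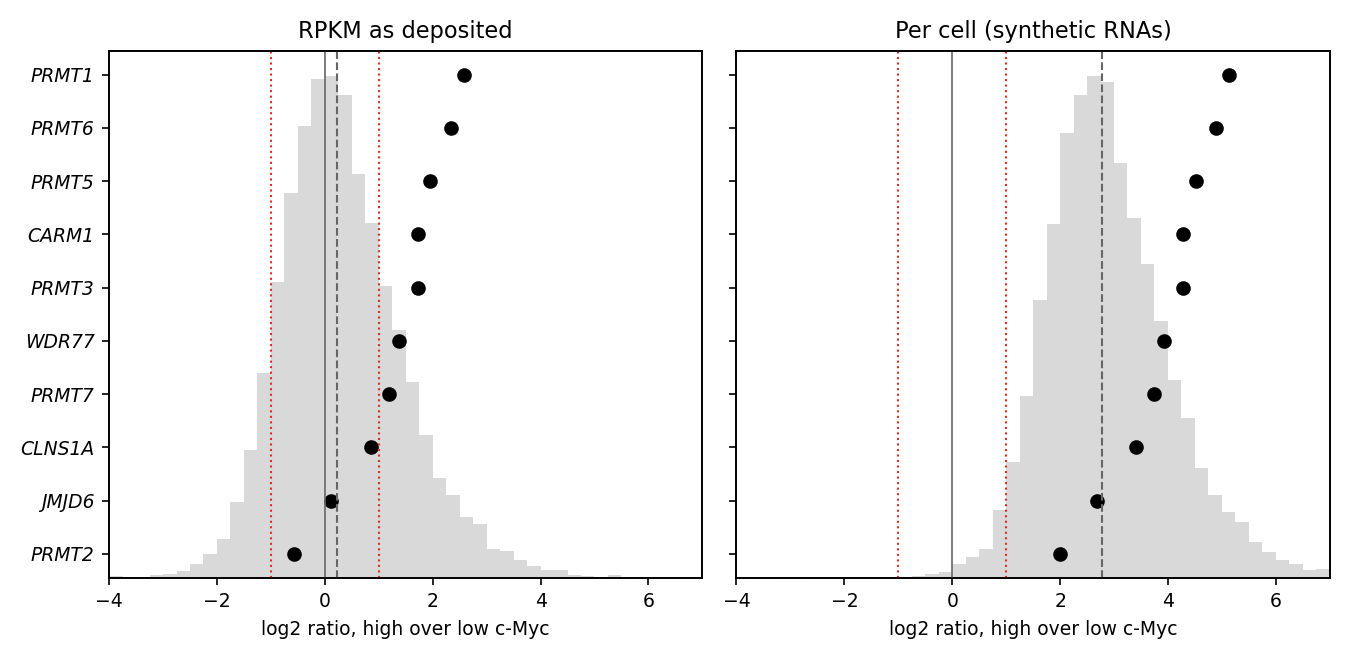
Log2 ratios of high over low c-Myc for the members (points) on the deposited scale (left) and per cell (right), over histograms of all 10272 expressed genes (grey; genes outside the axis are not drawn), with the median of all genes dashed and the 2-fold limits dotted in red. On the left 7 members lie past the upper limit, and on the right all 10 do, together with most genes.

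Other family members were nearly silent or weakly expressed. PRMT8, a membrane-bound enzyme of brain, was at 0 before release and had RPKM of 0.04 to 0.05 at 24 h over its 3 rows. PRMT9, listed as PRMT10 and the other type II enzyme, stood at an RPKM of 1.49 and 2.84, a log2 ratio of 0.75. With them, the list of further family members and of PRMT5 and PRMT1 adaptors and regulators had 9 expressed genes of 10. On the deposited scale 2 of these were at least 2-fold higher and 4 lower, against 24.9% and 9.74% of all expressed genes. The higher ones were C17orf79, at 5.16 and 19.7, and STUB1, a ubiquitin ligase, at 22.8 and 76.2. STUB1 had a log2 ratio of 1.72 that became 0.49 with the GC correction. Both antiproliferative genes whose products bind PRMT1 were lower as deposited, BTG1 at 76.4 and 17.3 and BTG2 at 195 and 71.7. Per cell, BTG1 was 1.33-fold and BTG2 2.17-fold higher. The lowest was the nuclear receptor gene NR4A1, an immediate early gene, at 253 and 16.6, which was also lower per cell. FBXO11, once proposed as a methyltransferase, stood at 11.5 and 5.15.

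Genes of the methyl donor cycle were on both sides of 0. Of 11 expressed genes of 12 listed, 2 were at least 2-fold higher as deposited and 1 was lower. Over all expressed genes the shares were 24.9% and 9.74%. The list had a median log2 ratio of 0.62. AHCY, which clears S-adenosylhomocysteine, the product that inhibits methyltransferases, had an RPKM of 20.8 before release and 114 at 24 h, a log2 ratio of 2.43. MTAP, which clears methylthioadenosine, an inhibitor of PRMT5, stood at 2.72 and 7.47. MAT2A, the catalytic subunit that makes S-adenosylmethionine, was at 34.8 and 62.2 (log2 ratio 0.83), and its regulatory subunit MAT2B at 19.1 and 14.6. GNMT, a liver enzyme that uses up S-adenosylmethionine, was the lower gene at 3.46 and 1.40.

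The Sm proteins and the SMN complex cover PRMT5 substrates and the machinery that assembles them. Of 20 expressed genes of 21 listed, 10 were at least 2-fold higher as deposited and none lower. Over all expressed genes the shares were 24.9% and 9.74%. The list had a median log2 ratio of 0.97. Among the substrates, SNRPB had an RPKM of 73.4 before release and 334 at 24 h, SNRPD1 at 4.35 and 17.1, and SNRPD3 at 27.7 and 42.5. LSM4, an Sm-like protein of the spliceosome, had the highest log2 ratio of the list at 3.04 (8.59 and 74.1), followed by GEMIN5, the subunit that recognises small nuclear RNAs, at 3.01 (10.2-fold higher). GEMIN7 and GEMIN2 stood at -0.01 and -0.05. SMN1 and SMN2 are near-identical copies whose reads cannot be told apart, and stood at log2 ratios of 0.78 and 0.79.

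Of 28 RNA-binding proteins with arginine and glycine rich motifs, most of them PRMT1 substrates, 14 were at least 2-fold higher and 1 was lower, with a median log2 ratio of 1.08. FBL, the methyltransferase of box C/D small nucleolar RNPs, stood at an RPKM of 53.4 and 443 (log2 ratio 3.04), and GAR1, of the H/ACA particles, at 7.72 and 56.3 (2.79). HNRNPK stood at -0.61, and the translational repressor FMR1 was the lower gene at -1.09. Among 13 CARM1 partners and substrates, 4 were higher and 1 lower, with a median of 0.40. The RNA-binding protein ELAVL1 had 1.72 and the splicing factor SF3B4 1.28, against -0.94 for the coactivator NCOA1 and -1.11 for NCOA3. Of 7 expressed genes of 9 listed as readers or removers of methylarginine, 1 was higher and 3 were lower, with a median of -0.36. PHF19, a Polycomb-associated protein whose Tudor domain is known for reading methyllysine, had 1.42 and SND1 0.50. DDAH2, listed here for a proposed breakdown of free methylarginines, stood at -1.23 and the deiminase PADI2 at -1.18. Over these 6 lists, 33 of 88 expressed genes were at least 2-fold higher and 10 lower as deposited, beside the 24.9% and 9.74% of all expressed genes. Quantile normalization gave 20 higher and 14 lower, against 17.5% and 17% of all expressed genes on that scale. The GC correction gave 40 higher and 7 lower, against 20.7% and 9.52% of the genes with a GC value. Per cell, 86 of the 88 genes were at least 2-fold higher and 1 lower, against 97.1% and 0.0876% of all expressed genes. Genes called lower in these lists are lower as deposited, and of them only NR4A1 was lower per cell.

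**Figure D4:**
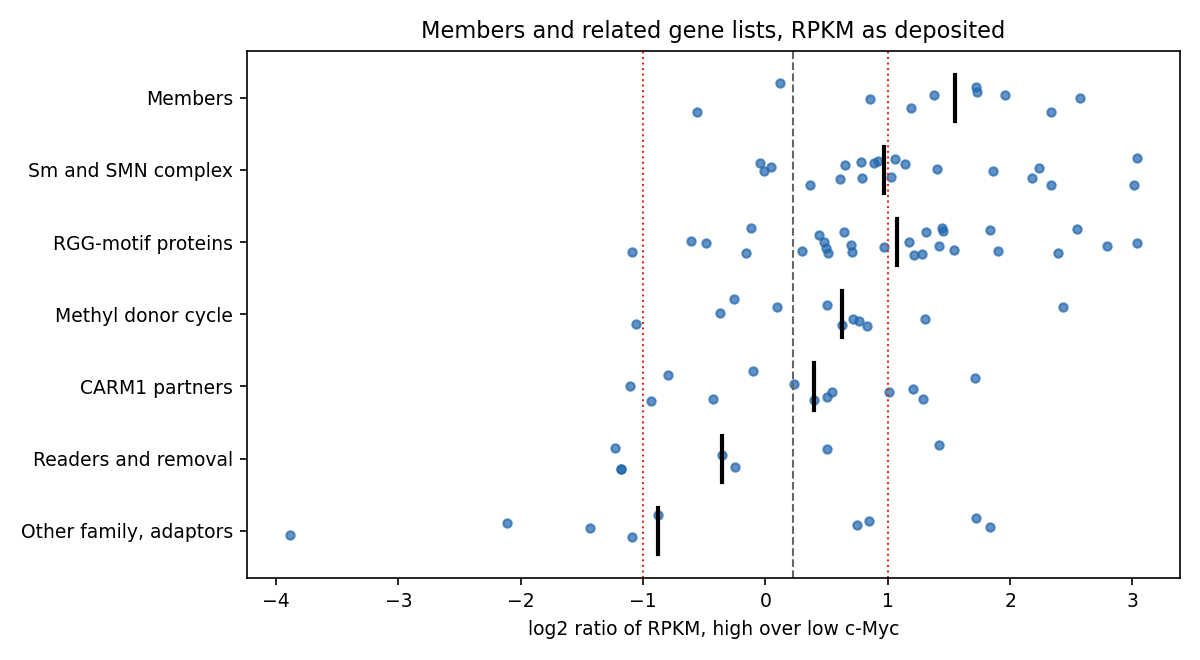
Log2 ratios of RPKM, high over low c-Myc, for each expressed gene (points; vertical scatter is only for display) of the members and the 6 related lists, with the list median (black bar), the median of all expressed genes (dashed) and the 2-fold limits (dotted red). As deposited the members have the highest median (1.55), and the adaptors and other family members the lowest (-0.88). With the GC correction the median was 1.33 for the members, 1.20 for the RGG-motif proteins and 1.14 for the Sm and SMN genes. Members and lists were chosen with earlier results of these data known, so their order here is a description only.

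The expressed genes closest to PRMT1 in level over the 2 libraries were TUFM, the mitochondrial elongation factor (RPKM 55.6 and 286), and CCT7, a chaperonin subunit (55.0 and 270), at a distance of 0.16 and 0.22 on the log2 scale. Those closest to PRMT5 were C8orf33 (6.52 and 26.5) and EIF3J, a translation initiation factor subunit (6.26 and 26.5), at 0.02 and 0.04. Within a distance of 0.25 lay 3 genes for PRMT1 and 46 for PRMT5. Nearness over 2 libraries is a description of 2 values only.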

How the data were processed

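Strand-marked libraries of polyadenylated RNA, 1 per group, had been sequenced from P493-6 cells. The authors deposited RPKM values for RefSeq transcripts and synthetic RNAs, per the file headers, and a further signal column, RPKM renormalized to the synthetic RNAs with no method stated in the labels. Bowtie and hg18 are named in the submitters' processing notes. No label or header names the counter, its filters or its use of strand.

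The row of highest mean RPKM stood for each symbol. Ratios were log2((high + 0.5)/(low + 0.5)) for genes with a mean RPKM of at least 1, called at 2-fold. The ratio per cell subtracts the synthetic RNAs' median log2 ratio, and folds use RPKM with no pseudocount. Reads were RPKM times GENCODE 29 transcript length times the implied depth. At that depth 46.4% and 45.4% of transcripts with up to 20 reads lay within 0.05 of a whole number. Those lengths are not the authors', and PCR copies are not independent, so exact Poisson and binomial intervals at 95% are approximate and cover counting error only. The length paired with the PRMT3 row is shorter than those of its other rows, which widens its interval. GC content was corrected by lowess (fraction 0.3) over 9948 genes. Exon overlaps come from GENCODE 29 on GRCh38 and promoters from RefSeq, builds other than hg18, used for neighbours and sequence only. Members and lists were chosen with earlier results of these data known. Of each list the 2 highest and 2 lowest genes were named, and the other genes named were chosen for their role. The implied depth, the synthetic RNAs' median ratio and the 2-fold calls were tested on simulated data whose transcript lengths were known exactly. The other steps were not tested in this way. Tools were matplotlib 3.10.9, statsmodels 0.14.6, pandas 2.3.3, scipy 1.17.1 and numpy 2.4.6 under Python 3.11.15.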

Additional observations from a re-analysis of the deposited data

Results flagged for a closer look

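PRMT8 had a signal in the authors' renormalized column that its RPKM did not show. Its rows NM_001256536, NM_001256537 and NM_019854 were listed at 11.9, 11.7 and 10.5 in the high c-Myc library, above their values in the low c-Myc library, while their RPKM was 0 in the low and at most 0.052 in the high c-Myc library. Of the 534 transcript rows at an RPKM of 0 in the low and above 0 in the high c-Myc library, 314 were listed above 5 in that column, and of the 12413 rows under an RPKM of 0.1 in the high c-Myc library, 282 were.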

How the results depend on the processing

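Over 10 alternatives for each scale, the count of members at least 2-fold higher as deposited was 5 to 7, with none lower, and per cell it was 10 throughout. The shares of all expressed genes at least 2-fold higher were 24.9% as deposited and 97.1% per cell. The count per cell therefore says little about the members. On the deposited scale that share was 19.8% with centring, 16.9% with equal sums and 17.5% with quantile normalization. Among genes with a GC value it was 20.7% with the GC correction. PRMT1, PRMT3, PRMT5, PRMT6 and CARM1 stayed past 2-fold on the deposited scale under each alternative, with the lowest value 1.01 for CARM1 (GC correction). PRMT7 was under 2-fold with the GC correction, centring, equal sums and quantile normalization (lowest 0.64), and WDR77 with equal sums and quantile normalization. CLNS1A was past it with the GC correction. No member past 2-fold changed sign. Of 88 expressed pathway genes, 33 were at least 2-fold higher as deposited, and from 20 (quantile normalization) to 40 (GC correction) over the alternatives. Those at least 2-fold lower numbered 10, and from 7 (GC correction) to 14 (quantile normalization). Over all expressed genes 9.74% were lower as deposited and 17% with quantile normalization. Of genes with a GC value, 9.52% were lower with the GC correction. Of all expressed genes past 2-fold, 71.8% were higher as deposited, 57.3% after centring, 48.9% with equal sums and 50.6% with quantile normalization. With 1 library per group no replicate could be left out. No paired analysis was possible because each group held 1 library and no test was made.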
